A study of Mus musculus with 6 samples.

Results

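The megakaryocyte and platelet bias genes are 10 genes, Vwf, Itga2b, Itgb3, Pf4, Gp9, Gp5, Gp1bb, Selp, Clu and Nfe2, that are active in megakaryocytes and platelets and that also mark the stem cells inclined towards those lineages. They were chosen by name, and all 10 were found once among the 55471 gene IDs of the deposited expression table. Transcripts were measured by total RNA sequencing in haematopoietic stem cells from mice, sorted by the gate Lin- Kit+ Sca1+ with CD150 present and CD48 absent. Mice of both groups carried the ETV6-RUNX1 fusion under inducible control, a fusion known from B-cell precursor leukaemia of children. The uninduced group (n = 3) received no doxycycline and the induced group (n = 3) received doxycycline in food for 2 weeks. No group with doxycycline and without the fusion was analysed here, so effects of the drug and of the fusion cannot be told apart. The age of the mice, the promoter that drives the fusion and the number of mice behind a library are not given in the sources used here, so p-values measure only the spread between these libraries.

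Megakaryocytes are the large marrow cells that shed platelets. Platelets stick to an injured vessel when the receptor made of GP Ib, GP IX and GP V binds von Willebrand factor, and they join each other when the integrin of αIIb and β3 chains (CD41 and CD61) binds fibrinogen. Many stem cells already carry low amounts of these transcripts, and stem cells with high Vwf or CD41 are known to give rise mainly to platelets. Vwf, Clu and Selp are also known to be higher in stem cells of old mice.

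Values are TPM (transcript shares of a library, corrected for gene length), so levels can be compared between genes within a library, but they keep no read depth. Changes are differences of mean log2(TPM + 1), induced minus uninduced. Folds are ratios of mean TPM, so they need not match the log2 change. Changes were tested with limma across the 13470 genes whose mean reached 1 TPM. A gene passed when its Benjamini-Hochberg adjusted p was under 0.05. The median change of all tested genes was -0.35. Nuclear protein-coding genes held 26.6% to 32.9% of the TPM in uninduced libraries and 20.5% to 23.2% in induced libraries. Each change is also given after median-of-ratios scaling, where the median of all tested genes was -0.0027. The parent genes of the fusion passed on neither scale: Etv6 had an adjusted p of 0.949 as deposited and 0.133 after scaling, and Runx1 of 0.452 and 0.0741 (limma). Fusion transcripts were not separated from these rows. Of the sorting markers, Slamf1 (CD150) ranged from 10.6 to 15.5 TPM in uninduced and from 5.31 to 11.3 TPM in induced libraries. Ly6a (Sca1) passed as higher (log2 change 1.33, limma adjusted p 0.00694, and 0.00411 after scaling). Kit passed as lower as deposited (-0.81, limma adjusted p 0.0354) but did not pass after scaling (adjusted p 0.220).

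The 250 bases before the annotated start of 3 of the genes are shown because Pf4 and Gp9 passed the test in opposite directions and Gp5 encodes a chain of the same receptor as Gp9. RefSeq windows on GRCm38.p6 were at hand for 6 of the 10 genes (Selp, Pf4, Gp9, Itga2b, Gp1bb and Gp5). Each is written 5′ to 3′ on the strand of the gene, with matches to the searched motifs in capitals. They span chr5:90772185-90772434 on the plus strand (Pf4), chr6:87777820-87778069 on the plus strand (Gp9) and chr16:30310782-30311031 on the minus strand (Gp5).
Pf4: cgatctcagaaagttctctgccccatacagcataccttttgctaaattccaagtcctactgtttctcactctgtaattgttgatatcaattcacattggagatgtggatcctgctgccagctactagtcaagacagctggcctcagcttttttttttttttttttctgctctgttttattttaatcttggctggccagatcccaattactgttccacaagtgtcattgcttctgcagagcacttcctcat
Gp9: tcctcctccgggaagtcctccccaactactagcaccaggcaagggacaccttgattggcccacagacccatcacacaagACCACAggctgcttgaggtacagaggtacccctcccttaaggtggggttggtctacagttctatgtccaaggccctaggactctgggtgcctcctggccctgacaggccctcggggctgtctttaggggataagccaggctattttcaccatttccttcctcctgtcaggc
Gp5: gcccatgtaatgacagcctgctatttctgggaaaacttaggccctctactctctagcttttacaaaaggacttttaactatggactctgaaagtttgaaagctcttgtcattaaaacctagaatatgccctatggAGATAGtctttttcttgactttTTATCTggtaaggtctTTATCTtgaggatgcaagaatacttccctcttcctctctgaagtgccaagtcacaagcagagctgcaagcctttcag
Motifs were sought on both strands, for GATA factors with the letters AGATAA as well as TGATAA and also AGATAG as well as TGATAG, for ETS factors with CAGGAA as well as CCGGAA, for RUNX factors with TGTGGT as well as TGCGGT, and for NF-E2 with TGAGTCA. No motif contains another. Gp5 held 3 GATA matches, starting 115, 93 and 77 bases before its start, and Gp9 held 1 RUNX match on the other strand, starting 171 bases before it. None of the 4 motifs was found in the Pf4 window. Of the other windows, Itga2b held 1 ETS match at 52 bases and Gp1bb 1 GATA match at 22 bases, and Selp held none. Among all 32851 windows of this length, 26.5% held a GATA match, 35.1% an ETS match, 18.6% a RUNX match and 4.46% an NF-E2 match, so such matches are common, and no binding was measured.

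**Figure D1:**
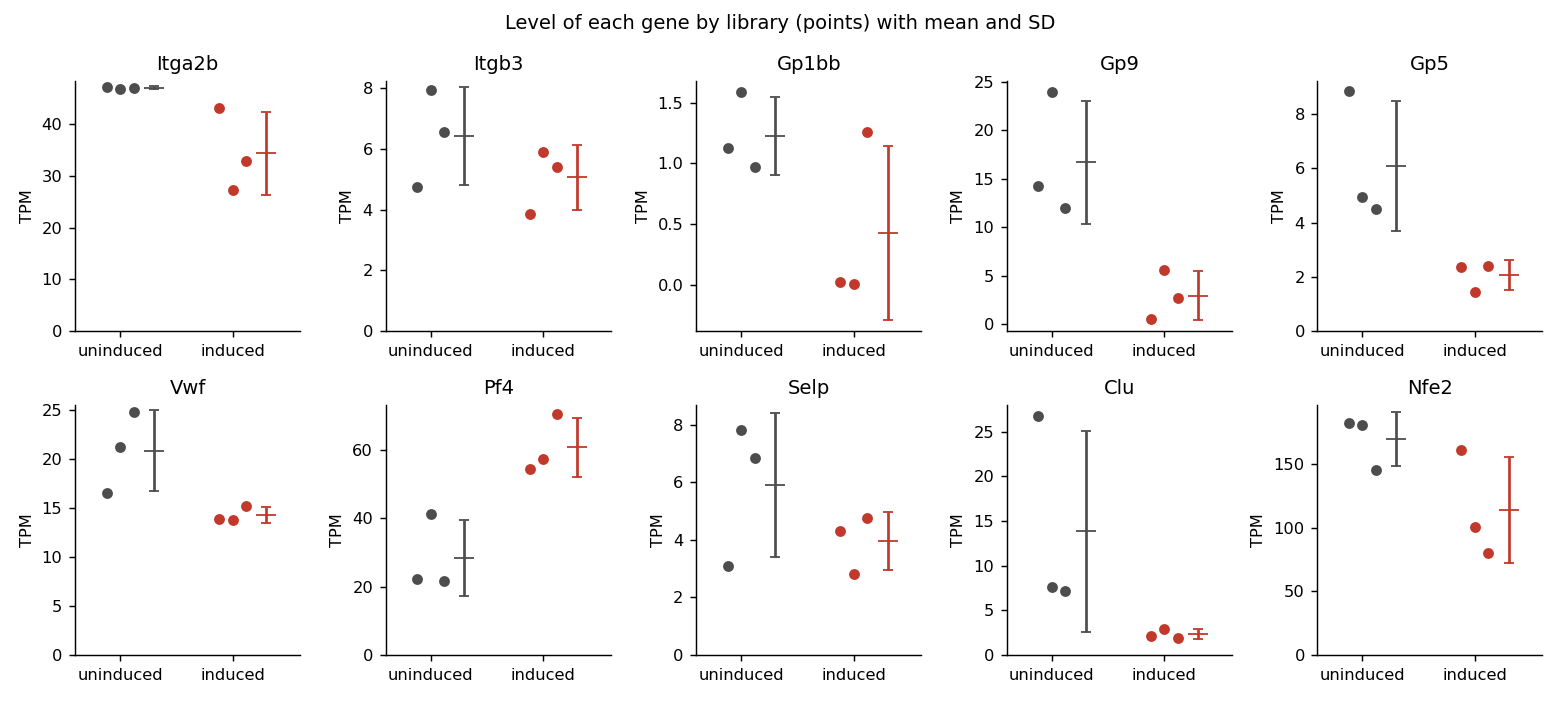
Level of the 10 genes in TPM (y axis, a scale of its own for each gene) in 3 uninduced (grey) and 3 induced (red) libraries; each point is a library, and the bar beside it is the mean with the SD. Pf4 lies higher in each induced library than in any uninduced one, Gp9, Gp5, Clu, Vwf and Itga2b lie lower, and the groups overlap for Itgb3, Gp1bb, Selp and Nfe2.

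As deposited, 3 of the 10 genes passed the test: Pf4 rose, and Gp9 and Clu fell. Of the 9 genes that reached the expression minimum (Gp1bb did not), 1 was higher, 2 were lower and 6 did not pass, and their median log2 change was -0.50. Over all tested genes 11.5% passed, 1.29% higher and 10.2% lower. On the scaled values Pf4 was the gene that passed, the median of the 9 was -0.12, and over all tested genes 6.05% passed (2.84% higher and 3.21% lower). The groups did not overlap for 6 of the 9 as deposited, 1 higher and 5 lower, against 33.1% of all tested genes (4.83% higher and 28.2% lower). After scaling this held for 4 of the 9, 1 higher and 3 lower, against 27.9% (13.4% higher and 14.5% lower). The count of 3 rested on single libraries: it was 0 without uninduced replicate 1 or without induced replicate 3, 1 (Pf4) without uninduced replicate 2, 1 (Gp9) without induced replicate 2, and 2 without uninduced replicate 3 (Gp9 and Clu) or without induced replicate 1 (Gp9 and Nfe2). Values of TPM are shares of a bulk library, so fewer cells with a transcript and less of it per cell cannot be told apart.

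**Figure D2:**
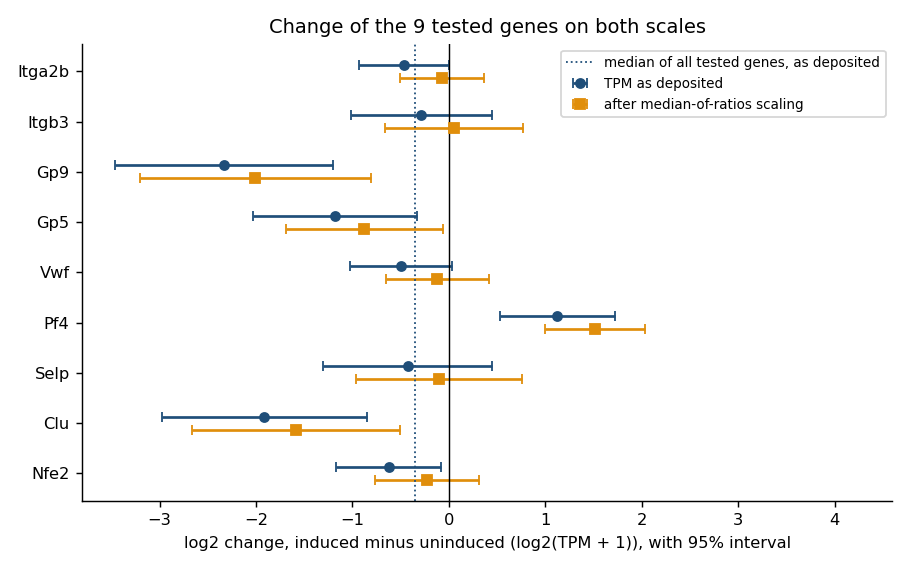
Log2 change (x axis, induced minus uninduced, log2(TPM + 1)) of the 9 tested genes with its 95% interval, as deposited (blue circles) and after median-of-ratios scaling (orange squares); the dotted line is the median of all tested genes as deposited, -0.35. Pf4 lies to the right and Gp9, Gp5 and Clu to the left of 0 on both scales, and the intervals of Itga2b, Itgb3, Vwf and Selp include 0 on both.

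Among the granule proteins, Pf4 (ENSMUSG00000029373; chr5:90772435-90773383), platelet factor 4, a chemokine stored in platelet alpha granules that megakaryocytes also release onto stem cells, moved up. Its level was 22.1, 41.3 and 21.6 TPM without and 54.2, 57.4 and 70.5 TPM with doxycycline. Uninduced replicate 2 stood above the other two of its group but below every induced library. The mean went from 28.4 ± 11.2 to 60.7 ± 8.62 TPM (SD, n = 3 each), 2.14-fold, a log2 change of 1.13 (95% interval 0.53 to 1.72, limma adjusted p 0.0253), and after scaling 1.52 (1.002 to 2.03, adjusted p 0.00806). As deposited Pf4 passed without uninduced replicate 2 (limma adjusted p 0.0179) but not on omitting any other library (0.0663 to 0.0945), while the change stayed between 0.97 and 1.42.

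The gene next to Pf4, Ppbp (ENSMUSG00000029372; chr5:90768518-90770063), ends 2371 bases before it and encodes pro-platelet basic protein, another alpha-granule chemokine. Ppbp was at 0.876 TPM in uninduced replicate 1, listed at 0 in the other two uninduced libraries, and at 11.9, 14.6 and 6.64 TPM with doxycycline (log2 change 3.22 with an SE of 0.44, limma adjusted p 0.00343). It passed under each of its 17 alternatives, including each library left out. The size of the Ppbp change depended on the pseudocount, at 5.63 with 0.1 and 1.57 with 5. The other protein-coding genes within 100 kb of Pf4 are chemokine genes too, looked at after the values of Pf4 and Ppbp were seen. Cxcl5 and Cxcl15 were listed at 0 in all 6 libraries, and Cxcl3 reached at most 0.911 TPM, in induced replicate 3.

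Vwf (ENSMUSG00000001930; chr6:125546774-125686679), the adhesive ligand of the GP Ib receptor, did not pass. It was at 16.5, 21.2 and 24.7 TPM in uninduced and 13.8, 13.8 and 15.2 TPM in induced libraries. The groups lay side by side without overlap as deposited, the induced ones lower and close together, and overlapped after scaling. The log2 change was -0.50 (95% interval -1.03 to 0.033, limma adjusted p 0.205), and after scaling -0.12 (-0.66 to 0.42, adjusted p 0.823). It passed under none of 17 alternatives.

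Selp (ENSMUSG00000026580; chr1:164115264-164150026), P-selectin, which moves from alpha granules to the platelet surface and binds leukocytes, overlapped between the groups. Its level was 3.09, 7.82 and 6.84 TPM in uninduced and 4.30, 2.82 and 4.76 TPM in induced libraries. The lowest uninduced library thus lay within the induced range. The log2 change was -0.43 (95% interval -1.30 to 0.45, limma adjusted p 0.516), and -0.10 after scaling (adjusted p 0.910).

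Clu (ENSMUSG00000022037; chr14:65968483-65981547), clusterin, a secreted chaperone also stored in platelet granules, fell as deposited. Its level was 26.8, 7.57 and 7.12 TPM in uninduced and 2.15, 2.94 and 1.92 TPM in induced libraries. The first uninduced library was far above the other two, and the lowest uninduced library was still above every induced one. The means were 13.8 ± 11.2 and 2.34 ± 0.532 TPM (SD, n = 3 each), 5.92-fold lower, a log2 change of -1.91 (95% interval -2.98 to -0.85, limma adjusted p 0.0312). After scaling the change was -1.58 (-2.66 to -0.51) with an adjusted p of 0.0903. Without uninduced replicate 1 it was -1.33 (adjusted p 0.0821), and of the 6 omissions only that of uninduced replicate 3 kept the call (adjusted p 0.0435, the others 0.0654 to 0.0998).

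The receptor for von Willebrand factor is built from the chains encoded by Gp1ba, Gp1bb, Gp9 and Gp5, of which Gp9 fell as deposited. Gp9 (ENSMUSG00000030054; chr6:87778072-87779768), the chain needed for the complex to reach the surface, was at 14.2, 23.9 and 12.0 TPM in uninduced and 0.564, 5.56 and 2.74 TPM in induced libraries. Every induced library was below every uninduced one, and the induced libraries differed widely among themselves. The means were 16.7 ± 6.34 and 2.96 ± 2.51 TPM (SD, n = 3 each), 5.64-fold lower, a log2 change of -2.33 (95% interval -3.46 to -1.20, limma adjusted p 0.0187). After scaling the change was -2.01 (-3.20 to -0.81) with an adjusted p of 0.0619. The call as deposited was also lost without uninduced replicate 1 (adjusted p 0.0680), uninduced replicate 2 (0.0934) or induced replicate 3 (0.0597).

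Gp5 (ENSMUSG00000047953; chr16:30307685-30310779), the chain that thrombin can cut, was at 8.85, 4.96 and 4.49 TPM in uninduced and 2.38, 1.43 and 2.39 TPM in induced libraries. The groups did not overlap on either scale, with the induced libraries lower. Its log2 change of -1.18 (95% interval -2.03 to -0.33) did not pass after adjustment (limma adjusted p 0.0751), nor did the scaled change of -0.87 (adjusted p 0.196). Its adjusted p ranged from 0.0644 to 0.231 over 16 alternatives.

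Gp1bb (ENSMUSG00000050761; chr16:18620317-18622403), the beta chain of GP Ib, was close to the bottom of the measured range and below the expression minimum. It was at 1.12, 1.58 and 0.967 TPM in uninduced and 0.0185, 0.00906 and 1.26 TPM in induced libraries. Of the induced libraries 2 were near 0 and 1 lay within the uninduced range. In the GENCODE M21 annotation of GRCm38 it shares 1902 bases on the same strand with Sept5, and most of its length with Gm49601, so reads there could be assigned to any of the 3 genes. Gp1ba, the alpha chain that holds the binding site for von Willebrand factor, was at 0.676, 4.45 and 1.49 TPM in uninduced and 1.30, 1.20 and 1.52 TPM in induced libraries (limma adjusted p 0.761).

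The integrin chains did not pass. Itga2b (ENSMUSG00000034664; chr11:102453297-102470122), which encodes the αIIb chain CD41, was at 47.3, 46.7 and 47.1 TPM in uninduced and 43.0, 27.2 and 32.9 TPM in induced libraries. The uninduced libraries were nearly equal, and the induced ones were lower and spread widely, with induced replicate 1 close to the uninduced level. The log2 change was -0.46 (95% interval -0.93 to 0.0048, limma adjusted p 0.183), and -0.073 after scaling (-0.51 to 0.36, adjusted p 0.874), where the groups overlapped. Itgb3 (ENSMUSG00000020689; chr11:104608000-104670476), the β3 chain, was at 4.75, 7.95 and 6.56 TPM in uninduced and 3.87, 5.90 and 5.42 TPM in induced libraries. These groups overlapped, with a log2 change of -0.28 (95% interval -1.02 to 0.45, limma adjusted p 0.612) that became 0.056 after scaling (-0.66 to 0.77).

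Nfe2 (ENSMUSG00000058794; chr15:103248212-103258403) encodes the haematopoietic subunit of the transcription factor NF-E2, which pairs with a small Maf protein and is needed for platelet release. It was the most abundant of the 10 genes, at rank 406 of the 13470 tested genes by mean TPM. Its level was 183, 181 and 145 TPM in uninduced and 161, 101 and 80.0 TPM in induced libraries. The groups overlapped through induced replicate 1. The log2 change was -0.62 (95% interval -1.16 to -0.084, limma adjusted p 0.127), and -0.23 after scaling (-0.77 to 0.31). Without induced replicate 1 it was -0.90 and passed (adjusted p 0.0430).

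Comparisons within a library do not depend on how libraries are scaled against each other. In TPM, Pf4 was below Itga2b in each uninduced library, at 0.468, 0.884 and 0.460 times its level, and above it in each induced library, at 1.26, 2.11 and 2.14 times. The ratio of Pf4 to Gp9 was 1.56, 1.73 and 1.81 in uninduced libraries and 96.2, 10.3 and 25.7 in induced libraries. Both pairs were chosen after the values were seen and are given as a description. In uninduced cells the order of the mean levels was Nfe2, Itga2b, Pf4, Vwf, Gp9, Clu, Itgb3, Gp5, Selp and Gp1bb. From Pf4 to Selp each neighbour in that order overlapped the next over the libraries. In induced cells the order was Nfe2, Pf4, Itga2b, Vwf, Itgb3, Selp, Gp9, Clu, Gp5 and Gp1bb. There the first 4 did not overlap each other, and from Itgb3 to Gp5 each gene overlapped the next.

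The ratio of chains within a receptor was tested for 3 pairs, as the difference of log2 of TPM + 1 within each library, with an exact two-sided permutation test that cannot go below 0.1 with 3 libraries against 3. For Itga2b over Itgb3 it was 2.72 ± 0.330 in uninduced and 2.54 ± 0.584 in induced libraries (SD, n = 3 each; exact permutation p 0.7). For Gp5 over Gp9 it was -1.31 ± 0.721 and -0.15 ± 1.27 (SD, n = 3 each; exact permutation p 0.3). For Gp1bb over Gp9 it was -2.94 ± 0.288 and -1.35 ± 1.17 (SD, n = 3 each; exact permutation p 0.1, adjusted over the 3 ratios 0.3), with Gp1bb itself near 0 in 2 induced libraries. The induced libraries varied more than the uninduced ones in each ratio. The values were -0.62, -2.70 and -0.73 for Gp1bb over Gp9 in induced replicates 1, 2 and 3, so that replicate 2 lay just above the highest uninduced library at -2.72. With a pseudocount of 0.1 in place of 1 the difference for Gp1bb over Gp9 was 0.54 rather than 1.59 (exact permutation p 0.7).

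**Figure D3:**
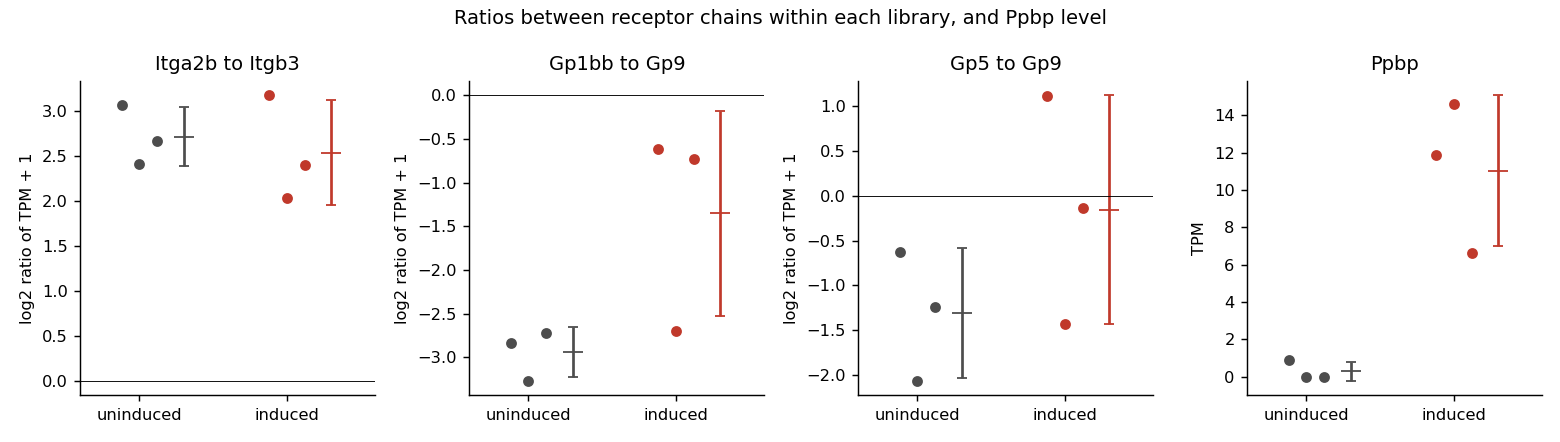
Log2 ratio of TPM + 1 between 2 receptor chains within each library (first 3 panels, y axis) and level of Ppbp in TPM (last panel), for 3 uninduced (grey) and 3 induced (red) libraries, with mean and SD beside the points. The ratio of Itga2b to Itgb3 overlaps between the groups, Gp1bb to Gp9 does not, and Ppbp is above 6 TPM in the induced libraries and below 1 TPM in the uninduced ones.

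Around these genes, 79 other genes of the megakaryocyte and platelet programme in 4 lists were read from the same fit. Of 62 tested, 2 were higher (Ppbp and Alox12), 8 were lower and 52 did not pass as deposited. The scaled counts were 6 higher and 3 lower. Over all tested genes 1.29% were higher and 10.2% lower as deposited, and 2.84% and 3.21% after scaling. These shares are the background for the counts of each list below. The median log2 change of the 62 was -0.29 as deposited and 0.094 after scaling, beside -0.35 and -0.0027 over all tested genes.

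Of the platelet receptors, 12 of 22 were tested and 2 were lower. Itgb1, the β1 integrin chain of collagen and fibronectin receptors, fell as deposited (-0.81, limma adjusted p 0.0460) but not after scaling (-0.42, adjusted p 0.221) or with any library left out (adjusted p 0.0505 to 0.152). After scaling Itga6, the α6 chain of the laminin receptor, passed as higher (0.68, limma adjusted p 0.0465).

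Of the granule cargo and release genes, 14 of 19 were tested, 1 was higher (Ppbp) and 1 lower. Mmrn1, multimerin 1, which holds factor V in alpha granules, fell from 97.3, 97.2 and 82.7 TPM to 39.4, 35.0 and 35.0 TPM, or -1.32 on the log2 scale with an SE of 0.17 (limma adjusted p 0.00259), and -0.92 after scaling (adjusted p 0.00992). It passed under each of 17 alternatives.

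Of the transcription factors, all 20 were tested and 3 were lower as deposited. Gfi1b, a repressor needed for megakaryocyte and red cell formation, was at 16.4, 18.3 and 29.0 TPM in uninduced and 10.9, 3.85 and 6.12 TPM in induced libraries (-1.54, limma adjusted p 0.0276). Mafk, a small Maf partner of NF-E2, had a change of -1.02 (limma adjusted p 0.0329). After scaling Gfi1b and Mafk did not pass (limma adjusted p 0.114 and 0.157), and Lmo2, an adaptor of the GATA and Tal1 complex, passed as higher (0.64, adjusted p 0.0129). The Mafk call was lost when any library was left out (adjusted p 0.0579 to 0.118), and the Gfi1b call when any but induced replicate 1 was (0.0662 to 0.105). Gata1, the main factor of megakaryocyte and red cell maturation, was at 3.24, 7.74 and 4.04 TPM in uninduced and 1.70, 4.08 and 2.51 TPM in induced libraries (limma adjusted p 0.347), and Fli1, an ETS activator of platelet genes, passed on neither scale (adjusted p 0.703 and 0.349).

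Of the signalling and cytoskeleton genes, 16 of 18 were tested, 1 was higher and 2 lower. Alox12, the platelet 12-lipoxygenase, was listed at 0 in uninduced replicates 1 and 2, at 0.652 TPM in uninduced replicate 3, and at 5.15, 4.03 and 5.81 TPM with doxycycline (log2 change 2.33, limma adjusted p 0.00898). Lat, an adaptor of platelet collagen and T cell receptor signalling, fell from 37.5, 29.7 and 27.0 TPM to 2.21, 9.48 and 2.48 TPM (-2.71, limma adjusted p 0.00528). Both passed after scaling and with each library left out. The size of the Alox12 change depended on the pseudocount, at 4.69 with 0.1 and 0.94 with 5. Plcg2, a phospholipase downstream of the collagen receptor, was lower as deposited (-0.63, limma adjusted p 0.0443), and this was lost after scaling (adjusted p 0.410) and with any library left out (0.0506 to 0.132). Tbxas1, thromboxane synthase (0.87, limma adjusted p 0.0142), and Bin2 (0.57, adjusted p 0.0462) passed as higher after scaling only.

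**Figure D4:**
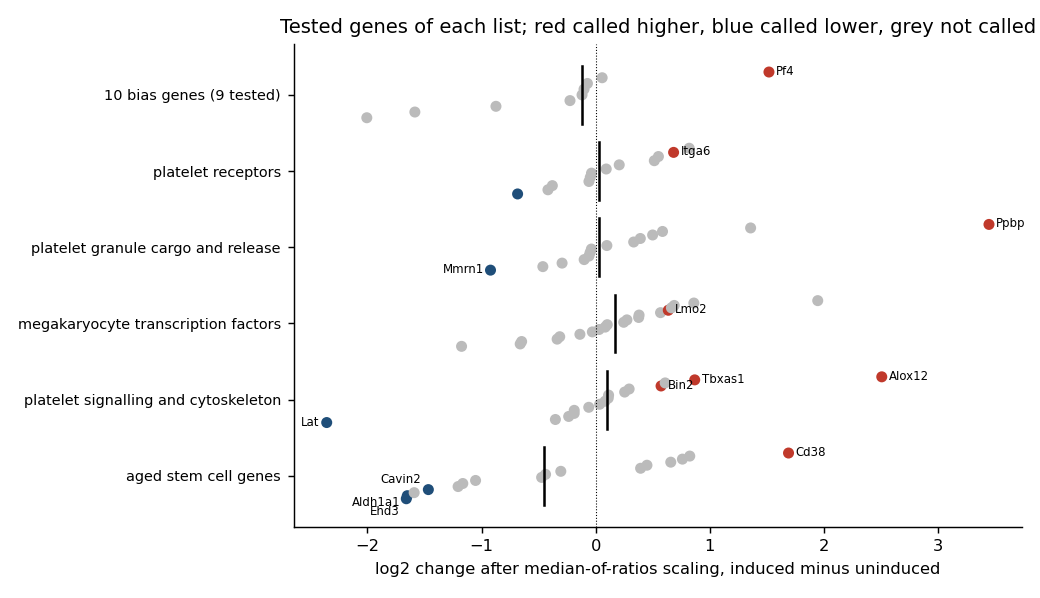
Log2 change after median-of-ratios scaling (x axis, induced minus uninduced) of the tested genes of the 10 bias genes and of 5 further lists (rows); each point is a gene, red if it passed as higher, blue as lower, grey if it did not pass (some coloured points carry names), and the black bar is the median of the list. The medians of the 4 megakaryocyte and platelet lists lie between 0.027 and 0.17 and that of the aged stem cell genes at -0.46.

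A list of 23 genes known to be higher in stem cells of old mice, which holds none of the 10, was compared because Vwf, Clu and Selp share that pattern. Of 16 tested, 0 were higher and 5 lower as deposited, while scaling left 3 lower and made 1 higher. Over all tested genes 1.29% were higher and 10.2% lower as deposited, and 2.84% and 3.21% after scaling. The median log2 change of the 16 was -0.80 as deposited and -0.46 after scaling, beside -0.35 and -0.0027 over all tested genes. Aldh1a1, an aldehyde dehydrogenase that makes retinoic acid, fell from 57.3, 60.7 and 49.97 TPM to 13.8, 12.2 and 12.6 TPM, 4.35-fold (log2 change -2.04, SE 0.20, limma adjusted p 0.000652, and 0.00146 after scaling). Cavin2, a caveolar coat protein also found in platelets, fell from 22.9, 25.3 and 20.3 TPM to 4.48, 4.09 and 9.74 TPM (-1.83, limma adjusted p 0.00821, and 0.0239 after scaling). Ehd3, an endosomal recycling protein, fell from 13.8, 13.5 and 12.4 TPM to 1.32, 3.39 and 3.50 TPM (-1.99, limma adjusted p 0.00728, and 0.0259 after scaling). These 3 passed with each library left out, and Ehd3 missed under 1 of 17 alternatives. Fhl1 (-1.91, limma adjusted p 0.0417) and Neo1 (-1.40, adjusted p 0.0492) were lower as deposited, and lost the call after scaling (adjusted p 0.130 and 0.115) and with any library left out (0.0512 to 0.148 and 0.0768 to 0.125). Cd38, an NAD-consuming ectoenzyme, passed as higher after scaling (1.69, limma adjusted p 0.0297).

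Markers of other cells were measured beside these results. The 6 defining markers of maturing megakaryocytes and platelets (Ppbp, Gp1ba, Gp6, Tubb1, Treml1 and Clec1b) summed to 1.87 to 6.60 TPM in uninduced and 9.54 to 18.6 TPM in induced libraries. Without Ppbp the sums were 1.87 to 6.60 and 2.90 to 4.58 TPM, Treml1 was listed at 0 in all 6 libraries, and Gp6 was at most 0.0979 TPM. Vwf and Selp are also endothelial genes. Of 11 endothelial markers 0 of 7 tested passed as deposited and 2 (Pecam1 and Egfl7) were higher after scaling, with sums of 165 to 212 and 182 to 239 TPM, while the endothelial cadherin Cdh5 was listed at 0 in all libraries but uninduced replicate 2. Of 13 erythroid markers, a lineage that shares its precursor with megakaryocytes, 7 were higher and 1 lower as deposited, with sums of 397 to 471 and 654 to 758 TPM, and Hbb-bs, a beta globin, had a log2 change of 3.55 (limma adjusted p 0.000255). Of 6 proliferation markers 5 were lower, with sums of 151 to 175 and 18.5 to 27.9 TPM. Mast cell and basophil markers summed to at most 4.12 TPM and lymphoid markers to at most 16.3 TPM, with 8 of the 11 lymphoid markers listed at 0 throughout. Myeloid markers summed to 289 to 351 and 271 to 314 TPM, with 1 higher and 1 lower of 9 tested. Of the 9 stem cell markers 3 (Ly6a, Procr and Hlf) were higher and 2 (Ctnnal1 and Kit) lower as deposited, and 4 higher and 0 lower after scaling. The part of these markers in the changes of the 10 genes was not tested.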

How the data were processed

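Total RNA of 6 libraries was analysed, 3 per group, grouped by library title. The authors deposited 1 gene table with a TPM column per library; bcl2fastq, HISAT2, StringTie and DESeq2 and the build GRCm38 are named, without versions or roles, per the submitters' processing notes, and StringTie per the file name. A GC percent column, per the file headers, was not used. TPM divides by length and library total, so depth is unknown and no counting interval can be given. The table has 60496 rows and 55471 gene IDs; the 5025 repeats were added to their ID, and none of the 10 genes had repeated rows. The name of the septin gene over Gp1bb is a date in the table, so it was matched by ID.

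Tests used limma 3.58.1 in R 4.3.3 on log2(TPM + 1), which understates changes of low genes, with a variance trend, for genes whose mean reached 1 TPM, two-sided, and Benjamini-Hochberg adjustment over 13470 genes. In simulated data of 13470 genes, 87% of changes of 2 log2 units and 31% of 1 unit were recovered. The changed genes were drawn only from those whose mean log2(TPM + 1) exceeded that of 5 TPM. These shares therefore do not cover lower genes. Positions are from GENCODE M21 (GRCm38), 1-based, and windows from RefSeq. All 10 genes are named; of other lists, genes that passed as deposited are named (up to 10 per list), with Gp1ba, Gata1, Fli1, Runx1 and Etv6. Of the cell type markers only examples are. Some genes of these lists are counted but not reported here. Genes passing only after scaling, Cxcl5, Cxcl15 and Cxcl3, were named after their values were seen. The 10 genes and the lists were chosen with earlier results of these data known. Alternatives were pseudocounts of 0.1 and 5, the minimum dropped or raised to 5 TPM, quantile normalization, scaling by median of ratios, nuclear protein-coding genes alone rescaled, array weights, no trend, a replicate block, and each library left out with the tested genes kept. For ratios, the first row per gene ID was also used in place of the sum. The block with median-of-ratios scaling was added after seeing the data.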

Additional observations from a re-analysis of the deposited data

How the results depend on the processing

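Read depth is unknown, so the precision of low genes such as Gp1bb rests on 3 libraries per group. The 1549 genes that passed became 752 without the filter, 814 with quantile normalization (374 higher, 440 lower, against 174 and 1375), 815 with median-of-ratios scaling (382 and 433), 945 after rescaling to protein-coding genes (465 and 480) and 767 without the trend, and 573 to 1198 with a library left out. Of the 10 genes, 3 passed; the number was 0 without the filter and 0 without the trend (limma; 4145 and 3550 of all genes had an unadjusted p under 0.05), 1 with quantile normalization, 1 with median-of-ratios scaling, and 0 to 2 with a library left out. The 10 calls in the 4 megakaryocyte and platelet lists became 6 without the trend and 6 to 7 with a library left out, and after rescaling to protein-coding genes were 15, with 11 higher. The 5 calls among aged stem cell genes became 3 with a pseudocount of 5 and 3 to 4 with a library left out. Why these counts changed was not tested. Dropping the filter raised the number of genes adjusted for from 13470 to 23013. Its other effects on the fit were not separated from that rise.

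With the replicate block 902 genes passed, 456 with the replicate block and median-of-ratios scaling; there 2 aged stem cell genes passed. The block left 3 of the 10 genes past the threshold as deposited, and 2 with scaling. Same-numbered libraries are not stated to be related: their deviations had a mean correlation of 0.0078, and 3 of 6 libraries correlated best with their own number. For Itga2b over Itgb3 the difference of -0.18 is by construction the same with the block. Its exact sign-flip p was 0.5, in a test that cannot go below 0.25 with 3 pairs. With a library left out the difference ranged from -0.50 to 0.072, reversing without induced replicate 2. Over Gp9, it ranged from 1.23 to 2.27 for Gp1bb and 0.52 to 1.79 for Gp5.

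Itgb3 reversed to 0.056 with median-of-ratios scaling, block or not, 0.066 with quantile normalization and 0.088 after rescaling. Fli1 likewise reversed to 0.27, 0.26 and 0.31, and Etv6 to 0.38, 0.36 and 0.41. With a library left out Gp1ba ranged from -0.66 to 0.19 and Etv6 from -0.066 to 0.069. Gp1bb moved from -0.74 to -2.32 with a pseudocount of 0.1 and -0.20 with 5. Of the other comparisons of 50 named genes, 97 became weaker and 1 stronger, library omissions aside.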
